A study of Mus musculus with 12 samples.

Results

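The teneurins (Tenm1, Tenm2, Tenm3 and Tenm4), the Flrt proteins (Flrt1, Flrt2 and Flrt3) and the latrophilins (Adgrl1, Adgrl2 and Adgrl3) are neuronal surface proteins that bind each other across the synaptic cleft. All 10 genes were taken by their symbols from the 46078 genes of the count tables. They were followed in E15.5 (embryonic day) brains of mice on a C57BL/6 background by RNA-seq of ribosomal RNA-depleted total RNA. The Nsd2 KO brains came from a CRISPR/Cas9 knockout of Nsd2, a methyltransferase that places dimethylation on lysine 36 of histone H3, and the controls were labelled WT. There were 3 male KO and 3 male WT libraries, and 3 female KO and 3 female WT libraries. Replicates were labelled only by number, and nothing in the labels says whether they came from separate litters, so the p-values measure the spread between these libraries.

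Latrophilins are adhesion G protein-coupled receptors that sit mainly on the postsynaptic side, and they bind teneurins and Flrt proteins with their extracellular domains. Teneurins are large transmembrane proteins whose binding to themselves or to latrophilins helps to match axons with their target neurons, and Flrt proteins are leucine-rich repeat proteins that also bind Unc5 receptors and steer the migration of young cortical neurons. Binding of a latrophilin to a teneurin and a Flrt protein at the same time is known to specify excitatory synapses in the hippocampus of the mouse.

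The genes differ greatly in size. By the GENCODE M21 annotation (GRCm38), Tenm2 on chromosome 11 (36006656 to 37235964, minus strand) spanned 1229 kb, Tenm1 on chromosome X (42527866 to 43429126, minus strand) 901 kb, Adgrl3 on chromosome 5 (81020138 to 81825133, plus strand) 805 kb, and Tenm4 on chromosome 7 (96171246 to 96911093, plus strand) 740 kb. Tenm3 on chromosome 8 (48227682 to 48843951, minus strand) spanned 616 kb. The remaining genes were shorter, from Adgrl2 on chromosome 3 with 175 kb, Flrt2 on chromosome 12 with 93.0 kb and Adgrl1 on chromosome 8 with 41.9 kb, down to Flrt3 on chromosome 2 (140650914 to 140671469, minus strand) with 20.6 kb and Flrt1 on chromosome 19 with 13.7 kb.

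RefSeq promoter windows, which run from 250 bases before to 50 bases after an annotated start, matched 9 of the 10 genes. A window each of Flrt3, Tenm2 and Tenm4 is shown because these genes carried the calls described below. CpG dinucleotides are in capitals, each sequence runs 5′ to 3′ on the strand of the gene, and the build is GRCm38.p6.
Flrt3, chr2:140671427-140671726, minus strand: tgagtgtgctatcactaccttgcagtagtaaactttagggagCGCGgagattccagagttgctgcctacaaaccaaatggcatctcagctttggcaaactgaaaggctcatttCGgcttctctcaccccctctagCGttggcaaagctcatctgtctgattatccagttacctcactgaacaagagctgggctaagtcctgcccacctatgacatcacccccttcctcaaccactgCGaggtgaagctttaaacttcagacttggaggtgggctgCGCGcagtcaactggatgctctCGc
Tenm2, chr11:36944192-36944491, minus strand: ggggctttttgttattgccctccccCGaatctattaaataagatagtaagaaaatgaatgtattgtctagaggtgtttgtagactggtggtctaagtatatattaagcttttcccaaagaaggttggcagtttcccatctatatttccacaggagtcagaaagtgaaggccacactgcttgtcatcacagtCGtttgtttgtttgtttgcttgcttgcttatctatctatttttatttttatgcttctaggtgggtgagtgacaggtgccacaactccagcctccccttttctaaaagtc
Tenm4, chr7:96170994-96171293, plus strand: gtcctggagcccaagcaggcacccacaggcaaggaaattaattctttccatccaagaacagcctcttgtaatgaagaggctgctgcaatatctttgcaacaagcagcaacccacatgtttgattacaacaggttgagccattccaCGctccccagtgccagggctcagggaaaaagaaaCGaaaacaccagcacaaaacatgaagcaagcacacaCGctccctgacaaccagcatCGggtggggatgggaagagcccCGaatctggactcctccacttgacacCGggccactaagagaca
The Flrt3 window held 8 CpG dinucleotides at 51.3% GC and the Tenm4 window shown 6 at 52.0% GC, against a median of 7 CpG dinucleotides and 52.7% GC over 32851 windows of the same length. Tenm4 has another RefSeq window (chr7:96211421-96211720), 40.4 kb inside the gene, with 12 CpG dinucleotides at 52.3% GC. The Tenm2 window held 2, and its RefSeq start lies 292 kb inside the span that GENCODE gives the gene. Both strands of each window were searched for CCAAT (present in 37.4% of all windows), TATAAA (13.6%), GGGCGG (35.7%), TGACGTCA (the cAMP response element, 1.79%), TGANTCA (the AP-1 site, 7.81%) and CACGTG (7.15%). None of these letters occurred in the 3 windows shown. Among the other members, Tenm3 had a TGACGTCA in its window and Flrt2 a CACGTG. Windows of Adgrl1 and Adgrl3 held GGGCGG, and windows of Tenm1, Adgrl2 and Adgrl3 held TATAAA. The RefSeq starts of the Tenm3, Tenm1 and Adgrl2 windows lie 169, 154 and 35.9 kb inside the GENCODE spans of these genes. These matches describe letters and were not tested for binding.

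All 10 genes were well measured. The lowest count was 1418 reads, for Flrt1 in KO female 2, which carries a counting error of 2.66%, and the highest was 38670 reads, for Adgrl1 in WT female 1. Library totals ran from 40398665 to 59304196 counts (genotype difference by two-sided exact permutation test, p = 0.4 in males and p = 0.6 in females, in a design whose smallest possible p is 0.1 and which cannot pass 0.05). Whsc1, the name the tables use for Nsd2, was at 0.905 to 2.67 CPM (read counts scaled to a common library size) in the 6 KO libraries, against 348 to 410 CPM in the 6 WT libraries, so each library fitted its genotype label. The libraries also differed in Hox genes, which mark hindbrain and spinal tissue. Hoxa5 was at 0.0885, 13.2 and 0 CPM in KO males 1, 2 and 3, against 0.870, 43.6 and 53.8 CPM in WT males, and at 0.182, 46.2 and 38.5 CPM in KO females, against 0.127, 0.0754 and 52.9 CPM in WT females. Hoxa5 was over 1 CPM in 1 KO male and 2 WT males, and in 2 KO females and 1 WT female, so the genotypes were unbalanced for it in opposite directions in males and females.

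Adgrl1 was the most abundant member when levels were put per length of exon. Over all 12 libraries it averaged 66.2 ± 7.82 CPM per kb (SD, n = 12), and its lowest library (52.8) lay above the highest library of any other member (33.4, for Tenm3). It made up a median of 71.9% of the summed latrophilin level per kb, with Adgrl2 at 17.0% and Adgrl3 at 11.2%. Among the teneurins Tenm3 led with 22.8 ± 4.04 CPM per kb (a median of 43.6% of the teneurin sum), followed by Tenm2 with 16.2 ± 4.85 and Tenm4 with 11.2 ± 2.35, while Tenm1 was lowest of all members at 4.03 ± 1.20. Among the Flrt genes Flrt2 averaged 16.0 CPM per kb (12.8 to 17.5), Flrt3 12.3 ± 1.40 and Flrt1 6.30 ± 0.89.

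Most neighbours in this order overlapped. The libraries of Tenm2, Adgrl2 and Flrt2 shared a range, as did those of Flrt3, Tenm4 and Adgrl3. A step came between Adgrl3, whose lowest library had 8.51 CPM per kb, and Flrt1, whose highest had 7.55. It was narrower beside Tenm4, whose lowest library, WT female 3, had 7.84. Exon lengths came from a newer annotation than the authors counted with, so the levels per kb are approximate.

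**Figure D1:**
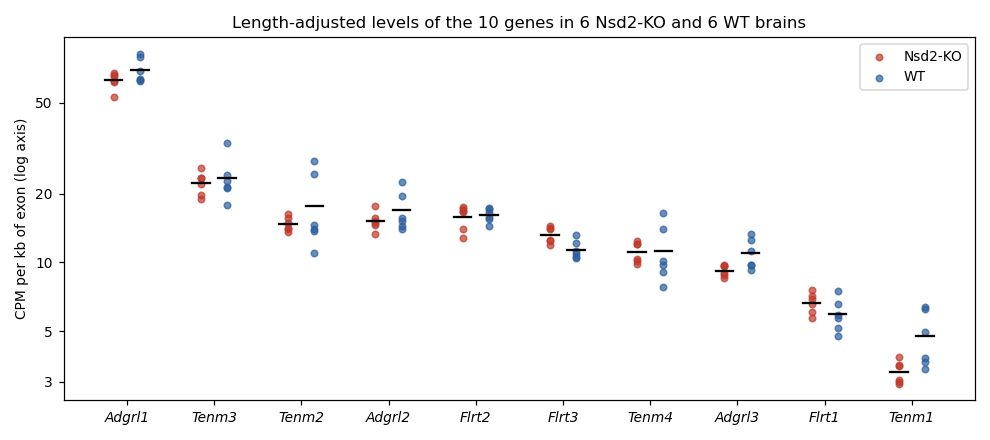
Length-adjusted level of each gene in 6 Nsd2 KO (red, left) and 6 WT (blue, right) brain libraries, in CPM per kb of exon on a log axis, with genes in order of their mean and black bars at the genotype means. Adgrl1 stands clear of the other members, and Tenm1 is lowest with its KO libraries at 2.95 to 3.84 and its WT libraries at 3.42 to 6.38.

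The next question was whether loss of NSD2 changed these genes. Flrt3 was the only member that passed the test over both sexes. In males it had 70.1, 67.8 and 68.8 CPM in the KO libraries, against 63.8, 52.7 and 58.9 CPM in the WT libraries. In females it had 60.1, 57.7 and 61.0 CPM in the KO libraries, against 51.2, 50.7 and 54.4 CPM in the WT libraries. In each sex every KO library lay above every WT library, and the groups overlapped only when the sexes were pooled, where KO females and WT males shared a range. In males 8.47% of all genes tested lay wholly above in KO and 8.82% wholly below. The shares in females were 7.79% and 6.19%, and all these shares also apply to the members described below. How many genes lay wholly above in both sexes was not counted.

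Flrt3, a ligand of latrophilins and of Unc5 receptors, rose by 0.22 on the log2 scale over both sexes (SE 0.049, 1.16-fold, edgeR quasi-likelihood test with Benjamini-Hochberg adjustment, adjusted p = 0.0414). Of all 19767 genes tested, 0.374% were called higher and 1.52% lower in KO. The difference was 0.24 in males (SE 0.077, adjusted p = 0.297) and 0.19 in females (SE 0.073, adjusted p = 0.623, same test), and the test of their difference gave -0.04 (adjusted p = 0.967). Leaving out single libraries left a fold change of 0.19 to 0.25, while the adjusted p ran from 0.0317 to 0.113 and the call was lost without KO male 1, KO male 2, KO male 3, KO female 1, KO female 3, WT male 2, WT male 3, WT female 1 or WT female 2. The call was also lost with the replicate number as a block (0.22, adjusted p = 0.0604) and with no filter on low counts (0.22, adjusted p = 0.0707), and it held with the Hox level as a covariate (0.21, adjusted p = 0.0367).

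Markers of several cell types and regions lay mostly in the same direction as Flrt3 over both sexes, and none of them passed the test. Of all genes tested 49.4% had negative fold changes over both sexes. This held for 0 of 6 forebrain markers (median 0.15), 2 of 10 radial glia markers (0.11) and 2 of 8 blood markers (0.07). The blood markers split by sex, with 6 of 8 negative in males (median -0.34) and 0 of 8 in females (0.47). Their sums were 1832 to 2516 CPM in KO males, against 2559 to 3211 CPM in WT males, without overlap. In females they were 1752 to 3161 CPM in KO, against 1411 to 2048 CPM in WT. Of the forebrain markers 0 of 6 were negative in males (median 0.38) and 3 of 6 in females (-0.0038). All 5 intermediate progenitor markers had positive fold changes over both sexes (median 0.24). Their summed level was 265 to 333 CPM in KO males, against 193 to 281 CPM in WT males, and 252 to 369 CPM in KO females, against 181 to 331 CPM in WT females. Inhibitory neuron markers had 7 of 8 positive fold changes (median 0.26), with none called and sums of 336 to 489 CPM in KO males, against 312 to 426 CPM in WT males, and 406 to 516 CPM in KO females, against 297 to 562 CPM in WT females. The part of these cells and regions in the Flrt3 difference was not tested. In whole brain RNA a change in the number of cells of a type and a change in RNA per cell cannot be told apart.

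The other Flrt genes did not pass. Flrt1 had 40.7, 35.6 and 41.6 CPM in KO males, against 30.3, 33.5 and 34.5 CPM in WT males, with no overlap (log2 fold change 0.26, SE 0.086, edgeR adjusted p = 0.303). In females it had 44.3, 33.5 and 38.6 CPM in KO brains, against 38.8, 44.1 and 28.1 CPM in WT brains, which overlapped throughout (0.07, SE 0.18). Flrt2, the most abundant Flrt gene, had overlapping groups in both sexes, with 128, 108 and 135 CPM in KO males, against 120, 134 and 122 CPM in WT males, and 132, 129 and 99.0 CPM in KO females, against 129, 133 and 111 CPM in WT females.

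**Figure D2:**
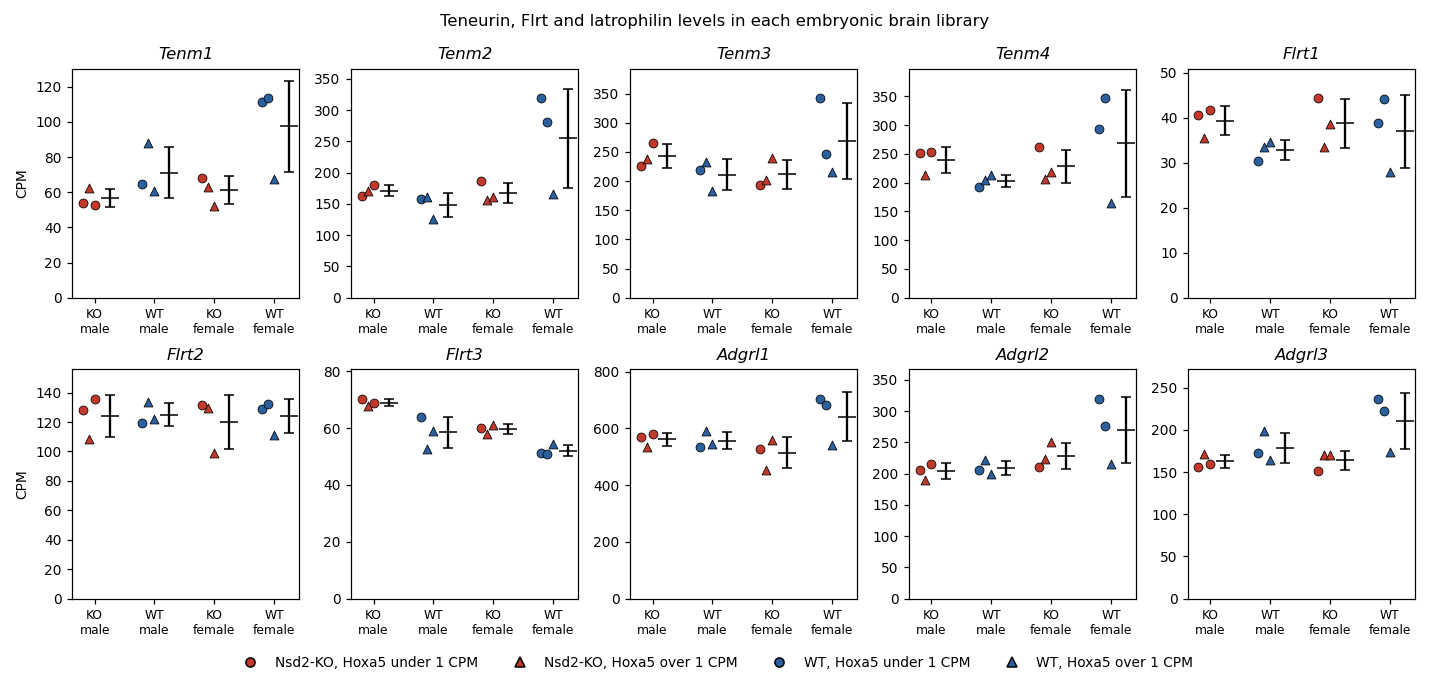
CPM of each gene in every library, by genotype and sex, from 3 libraries a group, with black bars for mean ± SD. Circles are libraries with under 1 CPM of Hoxa5 and triangles those with over 1 CPM. Flrt3 lies higher in KO within each sex, and for Tenm1, Tenm2, Tenm4 and the latrophilins WT females 1 and 2 stand above every other library.

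Tenm1, an X-linked teneurin, had the largest fold change of the 10 genes over both sexes but did not pass the test. It had 54.1, 62.3 and 52.9 CPM in KO males, against 64.9, 87.8 and 60.6 CPM in WT males, and 68.2, 62.8 and 52.3 CPM in KO females, against 111, 113 and 67.7 CPM in WT females. KO means were lower in both sexes, with 1 KO library above the lowest WT library in each. The log2 fold change was -0.50 over both sexes (SE 0.14, edgeR adjusted p = 0.114), -0.33 in males and -0.67 in females. DESeq2 called it lower (adjusted p = 0.0138). Without WT females 1 and 2 the difference was -0.27 (edgeR adjusted p = 0.254). In males it was -0.15 without WT male 2.

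Several marker lists also had mostly negative fold changes over both sexes, against 49.4% of all genes tested, with no gene of the lists called. In the meninges and mesenchyme list this held for all 7 of the 9 genes that could be tested (median -0.34), with sums of 280 to 544 CPM in KO males, against 219 to 1254 CPM in WT males, and 334 to 647 CPM in KO females, against 331 to 863 CPM in WT females. Oligodendrocyte lineage markers were negative in 5 of 5 (median -0.30), with sums of 85.2 to 99.8 CPM in KO males, against 110 to 169 CPM in WT males, and 71.1 to 115 CPM in KO females, against 97.0 to 137 CPM in WT females. Midbrain and hindbrain markers were negative in 8 of 9 (median -0.42), with sums of 94.6 to 136 CPM in KO males, against 125 to 137 CPM in WT males, and 123 to 162 CPM in KO females, against 112 to 204 CPM in WT females. The oligodendrocyte sums of KO and WT males and the pan-neuronal sums of KO and WT females did not overlap. The same held for the blood sums of males given above. Among single genes, 8.82% in males and 6.19% in females lay wholly below in KO, and the separation of the sums was not tested. Pan-neuronal markers were negative in 10 of 12 (median -0.12), with sums of 7121 to 7428 CPM in KO males, against 7126 to 7516 CPM in WT males, and 6702 to 6883 CPM in KO females, against 7115 to 7359 CPM in WT females. Microglia markers were negative in 5 of 6 (median -0.18), with sums of 41.0 to 52.4 CPM in KO males, against 44.4 to 62.8 CPM in WT males, and 36.0 to 44.1 CPM in KO females, against 36.3 to 48.9 CPM in WT females. Caudal Hox genes were negative in 9 of 11 tested (median -0.76). By sex they were negative in 8 of 8 tested in males (median -3.04) and in 0 of 9 in females (1.58). The midbrain and hindbrain markers also split, with 5 of 9 negative in males (median -0.63) and 4 of 9 in females (0.32). The part of these lists in the Tenm1 difference was not tested.

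Tenm2, a latrophilin ligand, had fold changes of opposite sign in males and females, neither of which passed. In males it had 163, 171 and 180 CPM in KO, against 158, 161 and 127 CPM in WT, and every KO library lay above every WT library. In females it had 186, 156 and 161 CPM in KO, against 319, 281 and 167 CPM in WT, where WT females 1 and 2 stood apart from WT female 3. The log2 fold change was 0.21 in males (SE 0.095, adjusted p = 0.431) and -0.61 in females (SE 0.23, adjusted p = 0.623), by edgeR. The genotype by sex term was -0.81 (SE 0.27, adjusted p = 0.91), so a difference between the sexes was not established.

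Tenm4 likewise had a positive fold change in males and a negative one in females. It had 252, 214 and 253 CPM in KO males, against 192, 205 and 213 CPM in WT males, again without overlap (0.24, SE 0.081, edgeR adjusted p = 0.312). In females it had 261, 206 and 218 CPM in KO, against 293, 346 and 165 CPM in WT, which overlapped (-0.23, SE 0.26). Leaving out single libraries moved the female value between -0.49 (without WT female 3) and -0.0068 (without WT female 2). The WT females thus held both the highest and the lowest Tenm4 level of all 12 libraries.

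Tenm3, which guides target choice in hippocampal and visual circuits of the mouse, had 226, 239 and 265 CPM in KO males, against 219, 233 and 182 CPM in WT males (0.20, edgeR adjusted p = 0.459). In females it had 193, 201 and 240 CPM in KO, against 342, 247 and 216 CPM in WT (-0.35, adjusted p = 0.717, and -0.13 without WT female 1). The summed teneurin level was 627 to 750 CPM in the 6 KO libraries, against 582 to 686 CPM in the WT males and 1065, 987 and 615 CPM in WT females 1, 2 and 3.

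The latrophilins had lower KO means in females, and in males their fold changes lay between -0.13 and 0.02. Adgrl1 had 569, 536 and 580 CPM in KO males, against 535, 590 and 544 CPM in WT males, and 528, 454 and 560 CPM in KO females, against 702, 681 and 541 CPM in WT females. Its log2 fold change was 0.02 in males and -0.32 in females (edgeR adjusted p = 0.946 and 0.664). The groups overlapped in both sexes.

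Adgrl3, a latrophilin linked to attention deficit disorder in people, was lower in every KO female (151, 170 and 171 CPM) than in every WT female (236, 222 and 174 CPM). The lowest WT female lay just above the highest KO female. In males it had 157, 172 and 159 CPM in KO, against 173, 199 and 164 CPM in WT. The log2 fold change over both sexes was -0.25 (SE 0.083, edgeR adjusted p = 0.186). Adgrl2, the remaining latrophilin, had 204 ± 12.7 CPM in KO males, against 209 ± 11.8 CPM in WT males, and 228 ± 20.6 CPM in KO females, against 270 ± 52.4 CPM in WT females (SD, n = 3 each).

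Counted over the 10 genes, 0 passed in males, where 0.337% of genes were called lower and 0.123% higher, and 0 passed in females, where 0.00535% were called lower and 0.0107% higher. In the 18671 genes tested in males, 8.47% had every KO library above every WT library and 8.82% every KO library below, and among the members Tenm2, Tenm4, Flrt1 and Flrt3 did. In females 7.79% of genes lay wholly above and 6.19% wholly below, and Flrt3 and Adgrl3 were the members that did so. Over both sexes 0.521% of genes lay wholly above and 1.29% wholly below, and no member did. The median log2 fold change of the members was 0.11 in males (all genes -0.01), -0.28 in females (all genes 0.01) and -0.11 over both sexes (all genes 0.00). The genotype by sex term was negative for all 10 members and for 45.2% of all genes, and edgeR called 0 of 19767 genes for it, with 1.83% lower and 2.62% higher at an unadjusted p under 0.05 and 5 genes called by DESeq2.

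**Figure D3:**
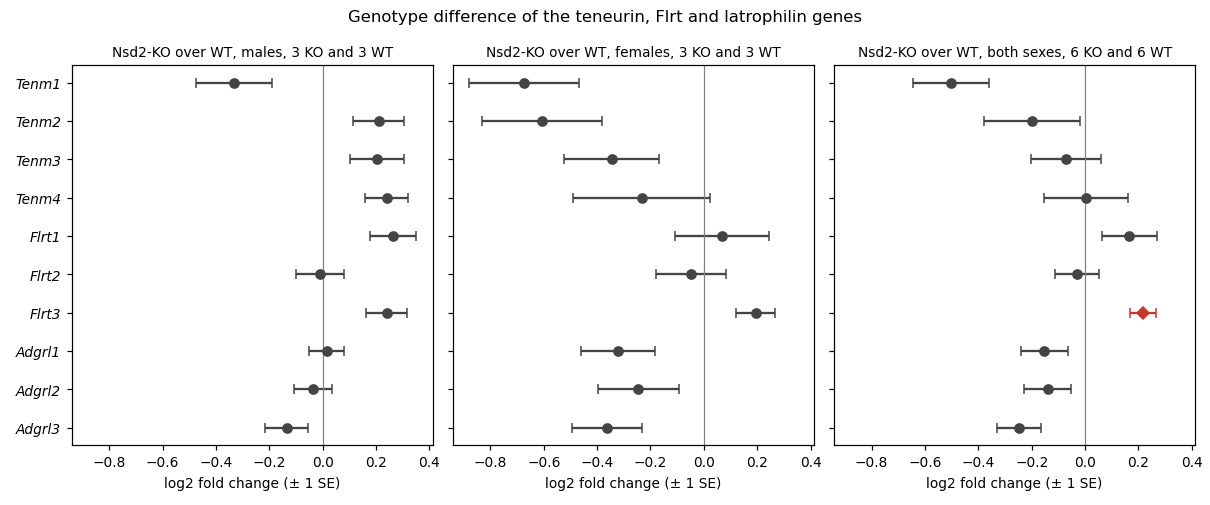
Log2 fold change of Nsd2 KO over WT for each gene in males (left), in females (middle) and with the sexes pooled (right), with bars of 1 SE from the edgeR fit. The red diamond marks Flrt3 over both sexes, the only value with an adjusted p under 0.05. Several teneurins lie right of 0 in males and left of 0 in females.

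WT females 1 and 2 stood apart for the teneurins and latrophilins. They were the 2 highest of all 12 libraries for 6 of the 10 members (Tenm1, Tenm2, Tenm4, Adgrl1, Adgrl2 and Adgrl3), which held for 8.87% of all genes tested and for 27.1% of protein-coding genes over 400 kb. Both libraries were among those with almost no Hoxa5. When they were left out, the fold change over both sexes was 0.14 for Tenm2 (-0.20 with them) and 0.12 for Tenm3 (-0.07 with them), and the median genotype by sex term of the members was 0.08 (-0.28 with them). What set these libraries apart was not tested.

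Over the 12 libraries Tenm2 and Tenm4 were lower where the Hox level was higher, though not within every group. In WT males 1, 2 and 3 Tenm4 rose (192, 205 and 213 CPM) with the summed Hox level (26.7, 238 and 278 CPM). In each other group the library with the lowest Hox level had the highest Tenm4. In a fit with sex and genotype, the coefficient on log2(summed Hox CPM + 1) was negative for all 10 members and for 45.9% of all genes, and edgeR called Tenm2 (-0.089 log2 per unit, SE 0.018, adjusted p = 0.0275) and Tenm4 (-0.079, SE 0.016, adjusted p = 0.0292). Of all genes tested 1.53% were called lower and 1.26% higher. Flrt1 (-0.048, adjusted p = 0.065) and Adgrl1 (-0.036, adjusted p = 0.105) came next in the same test, and Flrt3 had almost none (-0.0033, adjusted p = 0.875). Neither call held with the replicate number as a block (adjusted p = 0.121 for Tenm2 and 0.19 for Tenm4), and both rested on few libraries. Without WT females 1 and 2 the coefficients were -0.037 for Tenm2 and -0.032 for Tenm4 and neither was called, and the Tenm2 call was also lost without KO male 1, KO female 2, WT female 2 or WT female 3 (adjusted p up to 0.138), and the Tenm4 call without KO male 1, KO female 2, WT female 1 or WT female 2 (adjusted p up to 0.167).

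Some regional markers passed the same test. Of 11 caudal Hox genes tested 10 were called higher, of 9 midbrain and hindbrain markers 4 were called higher, 3 of the remaining 5 being negative, and of 9 cortical neuron markers 4 were called lower. Of 6 forebrain markers 0 were called, with 5 negative coefficients (median -0.043). The summed cortical neuron markers were 1264 to 1625 CPM in KO males, against 1141 to 1469 CPM in WT males, and 1196 to 1563 CPM in KO females, against 1232 to 1782 CPM in WT females. Their part in the Tenm2 and Tenm4 levels was not tested.

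**Figure D4:**
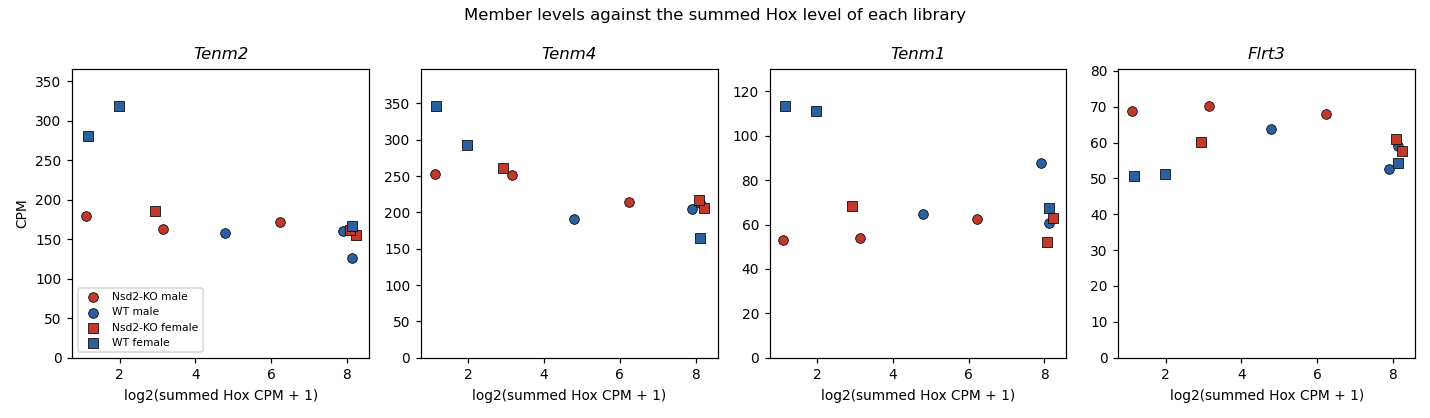
CPM of Tenm2, Tenm4, Tenm1 and Flrt3 against log2(summed Hox CPM + 1) in each of the 12 libraries, by genotype (KO red, WT blue) and sex (circles male, squares female). Tenm2 and Tenm4 are highest in WT females 1 and 2 at the low end of the Hox scale, and Flrt3, with a coefficient of -0.0033, shows no such order.

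Tenm4 and Flrt1 varied together within groups. Over the 12 libraries, after the mean of each genotype and sex group was removed, 36 of the 45 pairs of members had a positive Pearson r, and the 9 negative pairs were the 9 that included Flrt3. This pair was the closest (r = 0.957, Spearman rho = 0.986, exact permutation p = 0.00077 for each, the smallest that 1296 permutations within groups can give, adjusted over 45 pairs 0.0347), and the only pair to pass the adjustment. It remained at r = 0.928 without the 2 libraries farthest from the median of Tenm4. On unadjusted levels it was r = 0.784 in the 6 libraries where Hoxa5 was under 1 CPM and r = 0.943 in the other 6. Tenm1 and Flrt3 were the most opposed (r = -0.702, rho = -0.825, exact permutation p = 0.0432 and 0.0309, adjusted 0.228), with r = -0.577 without the 2 libraries farthest from the median of Tenm1. The signs of the other pairs depended on the libraries. Among the 36 pairs without Flrt3, 5 were negative without the 2 libraries farthest from the median of the first gene of the pair. Only that gene set which libraries were left out, so they could differ between pairs. On unadjusted levels 3 were negative in the 6 libraries where Hoxa5 was under 1 CPM and 13 in the other 6. Of the 9 pairs with Flrt3, 9, 9 and 5 were negative in the same settings. All these deviations share library depth and tissue composition.

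The genes most like the members in the same deviations were picked from 15054 genes as those with the 2 highest r for each member over 12 libraries, and so they carry no test. Among them were Fasn (r = 0.983) and Usp9x (0.980) for Tenm2, Wnk2 (0.984) for Tenm4, Slc22a23 (0.985) for Tenm3, Lonrf2 (0.966) for Tenm1, Celf5 (0.960) for Flrt1, Frmd6 (0.941) for Flrt2, and Wdr3 (0.953) and Hmgn1 (0.934) for Flrt3. For the latrophilins they included Abca2 (0.973) for Adgrl1, Stxbp4 (0.969) for Adgrl2 and Pde4a (0.951) for Adgrl3.

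Of the genes around the members, the partners and signalling proteins gave no call by genotype in the main test. Of 16 binding partners and co-receptors (Unc5, Robo, Fgfr and neurexin genes among them) 0 passed over both sexes, with a median log2 fold change of -0.04. Among them Nrxn2, a presynaptic adhesion protein, had -0.18 (SE 0.064, edgeR adjusted p = 0.222) and Robo1, an axon guidance receptor, 0.09 (SE 0.13, adjusted p = 0.84). Without WT females 1 and 2, however, 2 partners were called higher, Robo1 among them (0.33, adjusted p = 0.0381), and Robo1 was also the 1 partner called for the Hox level (coefficient -0.07, adjusted p = 0.00786). Of 16 G proteins and scaffolds that act below latrophilins 0 passed (median -0.10), with -0.10 for both Gnas and Gnao1.

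Among other adhesion G protein-coupled receptors, 1 of 17 fell over both sexes, namely Adgrb3, a C1q-like protein receptor at synapses, which fell by 0.33 on the log2 scale (SE 0.058, edgeR adjusted p = 0.0103). Calls were found among the other leucine-rich repeat synaptic adhesion genes, which help to organise synapses. Of these 20 genes 8 fell and 0 rose over both sexes, with a median of -0.24, and 0 members fell. Over all genes tested 1.52% were called lower and 0.374% higher. The list was chosen with earlier results of these data known, so its count of calls is no test of the list. Lrfn5 (-1.80, SE 0.12, adjusted p = 8.9e-06), Slitrk4 (-1.20, SE 0.11, adjusted p = 8.3e-05), Slitrk5 (-0.57, SE 0.056, adjusted p = 0.00016) and Slitrk3 (-0.48, SE 0.059, adjusted p = 0.00093) had the smallest adjusted p. In the 6 libraries where Hoxa5 was under 1 CPM 2 of the 20 were called lower, and in the other 6 libraries 1 was, and Adgrb3 was called in neither (adjusted p = 0.262 and 0.64). The difference between these genes and the members was not tested.

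The long members were set beside genes of like span. Of protein-coding genes over 400 kb, 339 were tested over both sexes, 19.2% were called lower and their median log2 fold change was -0.19. All 4 teneurins and Adgrl3 belong to this class, with fold changes of -0.50, -0.20, -0.07, 0.00 and -0.25, and none was called. Flrt3 lies in the class of 20 to 100 kb, where 0.3% of 6328 genes were called higher.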

How the data were processed

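RNA-seq was done on E15.5 brains, 3 per genotype and sex. The authors depleted ribosomal RNA with either version of a kit, made stranded libraries, sequenced on either of a pair of instruments (which library had which was not given in the sources used here), trimmed the longer reads and adapters (cutadapt 2.6), aligned to mm10 with HISAT2 2.1.0 and quantified genes with StringTie 2.0.6. They deposited raw whole-number counts per gene, a table for each sex. The strand setting was not given in the sources used here, so reads of antisense partners may be included.

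Counts were tested with edgeR 4.0.16 in R 4.3.3 (filterByExpr with a minimum count of 10, TMM, quasi-likelihood F test, robust fit) within each sex, over both sexes with sex as a term, for the interaction, and for the Hox level (log2 of summed Hox CPM plus 1). P-values were adjusted by Benjamini-Hochberg over all genes, with Nsd2 left out of counts, and called under 0.05. The comparison over both sexes uses the same libraries as those within sexes. The method was also run on simulated counts. These held no Hox or tissue difference between libraries, so they cannot show how calls fare under such differences. CPM used TMM library sizes. DESeq2 1.42.0, other filters and normalization, a replicate block, a Hox covariate and left-out libraries were the alternatives. The fits on libraries split by Hoxa5 or without WT females 1 and 2, and alternatives for the Hox coefficient, were chosen after seeing the data. Counting errors cover counting only.

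Named genes were all members, Nsd2, Hoxa5, up to 4 called genes of each list with the smallest adjusted p over both sexes (else the 2 most abundant), and the genes with the highest r to each member among those of at least 1 CPM. Members were found by symbol alone, but the choice of these families and of the lists was made with earlier results of these data known.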

Additional observations from a re-analysis of the deposited data

How the results depend on the processing

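Over both sexes, Tenm1 was the member called lower (1 member, against 0) with DESeq2 (-0.50, adjusted p = 0.0138) and with the replicate block (-0.48, adjusted p = 0.0346). The count of members higher went from 1 to 0 for Flrt3 with no filter on low counts (0.22, adjusted p = 0.0707), with the replicate block (0.22, adjusted p = 0.0604), in the 6 libraries where Hoxa5 was under 1 CPM (0.19, adjusted p = 0.557), in the 6 where it was over 1 CPM (0.20, adjusted p = 0.852) and without WT females 1 and 2 (0.20, adjusted p = 0.1), all by edgeR apart from the DESeq2 value. Without single libraries it was 0 to 1. Members with a negative Hox coefficient called numbered 4 with DESeq2, 0 with the replicate block, 0 without WT females 1 and 2, and 0 to 4 without single libraries. In females and for the interaction the members called lower were 0 to 1 without single libraries, the 1 being Tenm2 without WT female 3 (-0.84, adjusted p = 0.0471, and -1.03, adjusted p = 0.0474). Same-numbered KO and WT libraries deviated together by -0.10 to 0.32 (correlations), and differently numbered ones by -0.31 to 0.33. With 3 libraries a group these values cannot tell whether the numbers pair the libraries.

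Signs turned as follows. With the Hox covariate they were -0.0105 for Adgrl1 in males, 0.14 for Tenm4 and 0.0548 for Flrt2 in females, -0.0104 for Tenm4 over both sexes, and 0.10, 0.18 and 0.19 for Tenm4, Flrt1 and Flrt2 in the interaction. In the Hoxa5 subsets they were 0.0836 for Flrt2 (under 1 CPM), 0.0892 for Tenm2 and 0.11 for Tenm3 (over 1 CPM). Without WT females 1 and 2 they were 0.14, 0.12, 0.0299 and 0.0042 for Tenm2, Tenm3, Flrt2 and Adgrl2 over both sexes, 0.18, 0.23, 0.20, 0.12, 0.12 and 0.0488 for Tenm1, Tenm4, Flrt1, Flrt2, Adgrl2 and Adgrl3 in the interaction, and 0.0063, 0.0069 and 0.027 for Tenm1, Adgrl2 and Adgrl3 as Hox coefficients. Without single libraries the ranges crossed 0 in males for Flrt2 (-0.0751 to 0.0811), Adgrl1 (-0.00931 to 0.0572) and Adgrl2 (-0.0726 to 0.0154), in females for Flrt1 (-0.10 to 0.21) and Flrt2 (-0.13 to 0.0754), over both sexes for Tenm3 (-0.14 to 0.0543), Tenm4 (-0.0831 to 0.13) and Flrt2 (-0.0601 to 0.029), in the interaction for Flrt2 (-0.14 to 0.0919) and Flrt3 (-0.13 to 0.0312), and as a Hox coefficient for Flrt3 (-0.0066 to 0.0026). None of these members passed the test in the comparison where its sign turned. The causes were not tested.

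Counts over all genes depended on the method. Over both sexes 300 genes were called lower and 74 higher by edgeR, against 586 and 218 by DESeq2. In males edgeR gave 63 and 23, against 362 and 122 by DESeq2, and in females 1 and 2, against 129 and 50. Among the other adhesion G protein-coupled receptors DESeq2 called 4 lower over both sexes and the Hox covariate 2. The replicate block gave 219 lower and 70 higher in males, and the Hox covariate 6 and 7. Counting error, at most 2.66%, was small beside the spread over all 12 libraries, where the smallest SD was 9.41% of the mean (Flrt2). Within groups this did not hold for Flrt3. Its SD was 1.66% of the mean in KO males and 2.84% in KO females, against 9.51% in WT males and 3.85% in WT females.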
